A study of Mus musculus with 3 samples.

Results

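The VEGF and angiopoietin factors were 10 genes taken by name, Vegfa, Vegfb, Vegfc, Vegfd, Pgf, Angpt1, Angpt2, Angptl2, Angptl4 and Nrp1, each of which matched 1 symbol among the 32285 genes counted. They were followed in the mesenchymal cells of the callus, the tissue that bridges a broken bone. The femurs of C57BL/6 mice, anesthetized with isoflurane and given buprenorphine for pain, were cut and held with an intramedullary steel pin. No further treatment is named for the sequenced mice. The callus was digested with collagenase at day 7, day 10 and day 14 after the fracture. Live cells lacking CD45, CD31 and TER119 were sorted for droplet single-cell RNA sequencing. Each day was 1 library, so a day and its library cannot be told apart and no difference below carries a test. The intervals are exact 95% intervals that cover counting error alone. The sources used here give neither the age nor the number of animals behind a library, and the sort left out cells with CD31, the endothelium that these factors act on.

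Cells were kept when they had 500 to 5000 genes, at most 10% mitochondrial and 5% hemoglobin UMIs (unique molecular identifiers, 1 per captured RNA molecule), and no UMI of Ptprc, which encodes CD45. The 3 libraries kept 447, 6587 and 9680 cells in the order of the days. They were gated by 1 gene each: Aspn (asporin), Cnmd (chondromodulin), Col10a1 (collagen X), Ifitm5 or Rgs5. A gate needed at least 3 UMIs of its gene and at least 10 UMIs per 10000 of the cell, or 50 per 10000 for Col10a1. A cell above several thresholds went to the gene furthest above its own. The Aspn gate held 22, 1753 and 3843 cells at day 7, day 10 and day 14, the Cnmd gate 63, 2937 and 1882, the Col10a1 gate 7, 546 and 1450, the Ifitm5 gate 1, 76 and 258, and the Rgs5 gate 0, 74 and 201.

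VEGF-A is the main growth signal for blood vessels and is made when oxygen is low and by hypertrophic chondrocytes, the swollen cartilage cells that call vessels into cartilage before it turns to bone. VEGF-B and placental growth factor (Pgf) bind the receptor encoded by Flt1, VEGF-C and VEGF-D bind receptors of vessels and lymphatics, and neuropilin 1 (Nrp1) is a coreceptor for VEGF and for class 3 semaphorins. Angiopoietin 1 steadies vessels through the receptor TIE2, which is encoded by Tek, angiopoietin 2 can oppose it, and the angiopoietin-like proteins share their fold without binding that receptor.

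The gates were checked against markers of the cell types. Of 6 fibroblastic progenitor markers, 6 were at least 2-fold higher in the Aspn gate than in the other gated cells at both day 10 and day 14, among them Postn at log2 ratios of 3.22 and 3.14. Of 6 chondrocyte markers, 5 were higher in the Cnmd gate (Col2a1 by 2.43 and 2.50 on the log2 scale). Of 6 hypertrophic markers, 4 were higher in the Col10a1 gate (Ihh by 4.57 and 4.31), of 6 osteoblast markers 6 were higher in the Ifitm5 gate (Bglap by 7.61 and 5.12), and of 7 pericyte markers 6 were higher in the Rgs5 gate (Kcnj8 by 9.40 and 9.93). The lists were not particular to 1 gate: 3 hypertrophic markers (Ibsp, Sp7 and Alpl) were higher in the Ifitm5 gate, where that list summed to 70428.6 and 78178.9 CPM against 61344 and 57140.6 in the Col10a1 gate, and 3 osteoblast markers (Dmp1, Phex and Ibsp) were higher in the Col10a1 gate. Pdgfrb and Acta2 of the pericyte list were also higher in the Aspn gate. Cspg4, the pericyte marker that was not higher in the Rgs5 gate, had log2 ratios of 0.02 and 0.12 in the Rgs5 gate. It was at least 2-fold lower in the Aspn gate and higher in the Cnmd gate at both days. Rgs5 in every other gate was at most 0.0758% of its own level at day 10 and day 14. Cells outside all gates, 354, 1201 and 2046, are left out of the comparisons.

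The day 7 library stood apart. Of its 7017 cells within the limits, 6570 had a UMI of Ptprc, against 6 of 6593 at day 10 and 173 of 9853 at day 14, and 8 neutrophil markers summed to 1516 to 2124 CPM (UMIs of a gene per 1000000 UMIs of the summed cells) in its gates. In the gates of day 10 that sum was 0.750 to 51.1 CPM, and in those of day 14 it was 32.4 to 237 CPM. Its gated cells were therefore given as values and entered no count. The day 10 and day 14 libraries shared 35 cell barcodes, of which 14 were gated at both days, day 7 and day 10 shared 29, and day 7 and day 14 shared 42. Endothelial RNA was low: over the gates of day 10 and day 14, 8 markers summed to 6.75 to 60.6 CPM, and the highest sum lay in the Rgs5 gate.

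Sequences before the start sites are shown for Vegfa, Angptl2 and Nrp1, which led in different gates. RefSeq (GRCm38.p6) gave such a sequence for 7 of the 10 members, and the 250 bases before the start are printed 5′ to 3′ on the strand of the gene. Capitals mark GC boxes (GGGCGG) and hypoxia response element cores (ACGTG or GCGTG) on either strand. The windows are chr17:46032378-46032627 on the minus strand for Vegfa, chr2:33215711-33215960 on the plus strand for Angptl2, and chr8:128358823-128359072 on the plus strand for Nrp1.
Vegfa: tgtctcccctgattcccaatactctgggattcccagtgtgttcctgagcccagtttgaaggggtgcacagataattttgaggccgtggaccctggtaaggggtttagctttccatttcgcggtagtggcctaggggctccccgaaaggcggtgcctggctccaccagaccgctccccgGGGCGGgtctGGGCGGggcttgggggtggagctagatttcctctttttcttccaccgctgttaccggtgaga
Angptl2: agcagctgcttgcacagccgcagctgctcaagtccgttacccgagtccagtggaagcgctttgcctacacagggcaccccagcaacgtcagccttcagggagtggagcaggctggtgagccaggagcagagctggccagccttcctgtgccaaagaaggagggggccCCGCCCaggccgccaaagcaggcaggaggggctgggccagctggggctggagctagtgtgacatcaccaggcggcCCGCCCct
Nrp1: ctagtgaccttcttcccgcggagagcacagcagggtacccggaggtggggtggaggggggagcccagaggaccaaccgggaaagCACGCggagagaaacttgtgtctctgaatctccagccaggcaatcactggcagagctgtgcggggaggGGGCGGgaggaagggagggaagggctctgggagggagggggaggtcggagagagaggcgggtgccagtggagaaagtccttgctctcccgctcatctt
Vegfa and Angptl2 each had 2 GC boxes and no hypoxia core in this window, and Nrp1 had 1 of each. RefSeq also gave Vegfa a second start, at position 46025163, whose window overlapped an exon and held 2 hypoxia cores and 1 GC box. Windows of this length held a GC box in 32.7% and a hypoxia core in 38.6% of 32851 promoters. None of the 3 windows held a TATA box (TATAAA), which 12.4% of all promoters did. These are matches of letters and no binding was measured.

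Vegfa (ENSMUSG00000023951, chr17:46016993-46032369, minus strand) was the member that marked the Col10a1 gate. Its level there was 399 CPM at day 7 (interval 308 to 508, 7 cells), 382 at day 10 (369 to 394) and 325 at day 14 (318 to 333). In the Cnmd gate it was 80.0, 118 and 57.7 CPM at the same days, and in the Aspn gate 39.3, 49.4 and 38.0. The Ifitm5 gate had 89.2 CPM at day 10 and 62.3 at day 14, and the Rgs5 gate 48.2 and 38.9. The Col10a1 gate was thus highest at each day, and no interval of another gate of at least 20 cells reached it. Against all other gated cells it was 3.99-fold higher at day 10 (log2 2.00, interval 1.94 to 2.05) and 6.96-fold higher at day 14 (2.80, 2.75 to 2.85). The other gated cells had 95.6 CPM at day 10 and 46.7 at day 14, and their mix of gates differed. The Cnmd gate was 54.5% and 24.65% of all gated cells at these days, and the Aspn gate 32.55% and 50.3%. The log2 ratios to the other gated cells were -1.637 and -2.002 in the Aspn gate and -1.38 and -1.41 in the Rgs5 gate. The Aspn and Rgs5 gates could not be ordered beyond counting error at either day, and neither could the Ifitm5 and Cnmd gates at day 14.

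Most cells of the Col10a1 gate contributed. A UMI of Vegfa was seen in 90.1% of them at day 10 and 86.9% at day 14, with a median of 4 UMIs per cell at both days and at most 44 in 1 cell. With each cell thinned to 2000 UMIs the shares were 46.4% (interval 42.1 to 50.8) and 43.1% (40.5 to 45.7). The thinned shares in the Cnmd gate were 16.0% and 10.2%, and in the Aspn gate 8.94% and 7.80%. Free RNA can also put a UMI into a cell. The Ptprc-positive cells of day 7 had a thinned share of 3.28% (2.85 to 3.75) at a median depth of 5045 UMIs. The 173 Ptprc-positive cells of day 14 had 10.1% (5.97 to 15.6) at 9210 UMIs. The 5 gates of day 10 and day 14 had median depths of 9076 to 20805.5 UMIs. The day 14 shares of the Cnmd and Aspn gates lay within the interval of the day 14 Ptprc-positive cells, while that of the Col10a1 gate lay above it. Those Ptprc-positive cells also had 710 CPM of Aspn and 1754.7 CPM of Col10a1, and the part of free RNA in their Vegfa was not tested. Their share is thus not a measure of background alone and cannot decide how much of the Cnmd and Aspn shares is background. Day 10 had 6 Ptprc-positive cells, too few for such a share.

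Vegfb (ENSMUSG00000024962, chr19:6982473-6987651, minus strand), a ligand of the FLT1 receptor, was spread over the gates within narrow limits. Its level was 18.2 CPM at day 10 and 20.99 at day 14 in the Aspn gate, 12.01 and 11.8 in the Cnmd gate, 13.1 and 14.0 in the Col10a1 gate and 21.6 and 25.3 in the Rgs5 gate. The Ifitm5 gate was the exception, with 6.00 CPM (8 UMIs, interval 2.59 to 11.8) and 4.25 CPM (17 UMIs, 2.48 to 6.81). Its log2 ratios to the other gated cells were -1.22 and -1.97, on few UMIs. At day 7 the Aspn gate had 15.7 CPM and the Cnmd gate 10.8.

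Pgf (ENSMUSG00000004791, chr12:85166635-85177790, minus strand), the other FLT1 ligand, was highest in the Rgs5 gate, at 182 CPM at day 10 (interval 156 to 211, 177 UMIs) and 93.8 CPM at day 14 (81.2 to 108, 200 UMIs). The Col10a1 gate came next at day 10 with 11.4 CPM (9.35 to 13.7) and had 5.10 at day 14 (4.25 to 6.07). The Aspn gate had 2.77 and 2.12 CPM, the Cnmd gate 0.406 and 0.644, and the Ifitm5 gate 0.750 and 6.76. The Rgs5 gate exceeded the other gated cells 82.7-fold at day 10 and 38.95-fold at day 14 (log2 6.37 and 5.28). Its cells were few, at 74 and 201, yet they held 46.1% (41.0 to 51.2) and 40.6% (36.2 to 45.1) of the Pgf UMIs of all gated cells. A UMI of Pgf was seen in 73.0% of the Rgs5 cells at day 10 and in 40.3% at day 14, or 33.3% and 15.2% after thinning. In the Ptprc-positive cells the thinned share was 0.129% at day 7 and 0.592% (0.0150 to 3.25) at day 14.

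Vegfc (ENSMUSG00000031520, chr8:54077606-54187096, plus strand) and Vegfd (ENSMUSG00000031380, chrX:164373378-164402650, plus strand), the ligands named for lymphatic growth, were low in all gates and did not reach the 10 CPM asked of a gene before it was compared. Vegfc was 4.64 CPM (124 UMIs) and 4.19 CPM (227 UMIs) in the Aspn gate at day 10 and day 14 and at most 1.501 CPM in the other gates. The Aspn gate held 77.5% (interval 70.2 to 83.7) and 82.0% (76.9 to 86.3) of the Vegfc UMIs of the gated cells. Vegfd was 1.76 and 2.20 CPM in the Aspn gate and at most 1.05 CPM elsewhere on those days. No UMI of Vegfd was found in the Ifitm5 gate, where 3 UMIs would be 2.25 CPM at day 10 and 0.751 CPM at day 14. For Vegfd the Aspn gate held 52.2% (41.4 to 62.9) and 80.4% (73.1 to 86.5), and at day 10 its level was not above that of the next gate beyond counting error. At most 5.82% of Aspn cells had a UMI of Vegfc.

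Angpt1 (ENSMUSG00000022309, chr15:42424723-42676977, minus strand), which activates TIE2, had no gate of its own. The Ifitm5 gate had 26.2 CPM at day 10 (interval 18.3 to 36.5) and 29.5 at day 14 (24.4 to 35.4), the Aspn gate 19.6 and 20.7, the Rgs5 gate 22.6 and 17.8, and the Cnmd gate 19.95 and 12.46. At day 10 these 4 gates could not be ordered beyond counting error between neighbours. The Col10a1 gate was lowest at both days, with 5.95 CPM (4.51 to 7.71) and 9.19 CPM (8.03 to 10.46), with log2 ratios of -1.75 and -0.95 to the other gated cells. At day 7 the Aspn gate had 47.1 CPM (27.9 to 74.5, 18 UMIs) and the Cnmd gate 16.9 (10.6 to 25.6, 22 UMIs). Vegfa and Angpt1 had opposite extremes in the Col10a1 gate, where Vegfa was highest.

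Angpt2 (ENSMUSG00000031465, chr8:18690263-18741562, minus strand) was found in the Rgs5 gate at 55.4 CPM at day 10 (interval 41.6 to 72.3, 54 UMIs) and 81.6 CPM at day 14 (69.9 to 94.6, 174 UMIs). No other gate exceeded 3.00 CPM on those days. The ratio to the other gated cells was log2 5.96 (5.44 to 6.47) and 6.13 (5.80 to 6.46). Of the Rgs5 cells, 47.3% and 45.8% had a UMI, with 5.56% and 13.1% after thinning, and these intervals (1.53 to 13.6 and 8.76 to 18.65) overlapped. The Ptprc-positive cells had thinned shares of 0.0808% at day 7 and 1.18% (0.144 to 4.21) at day 14. The gate held 39.1% and 55.1% of all Angpt2 UMIs of the gated cells. In pairs of members looked at after seeing the data, cells of the Rgs5 gate with a UMI of Pgf also had one of Angpt2 in 50% of 54 cells at day 10 and 53.1% of 81 cells at day 14, against 40.0% of 20 and 40.8% of 120 cells without Pgf. The cells with Pgf were deeper, with medians of 12743.5 and 11998 UMIs against 10833.5 and 8231, and the part of depth in this was not tested.

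**Figure D1:**
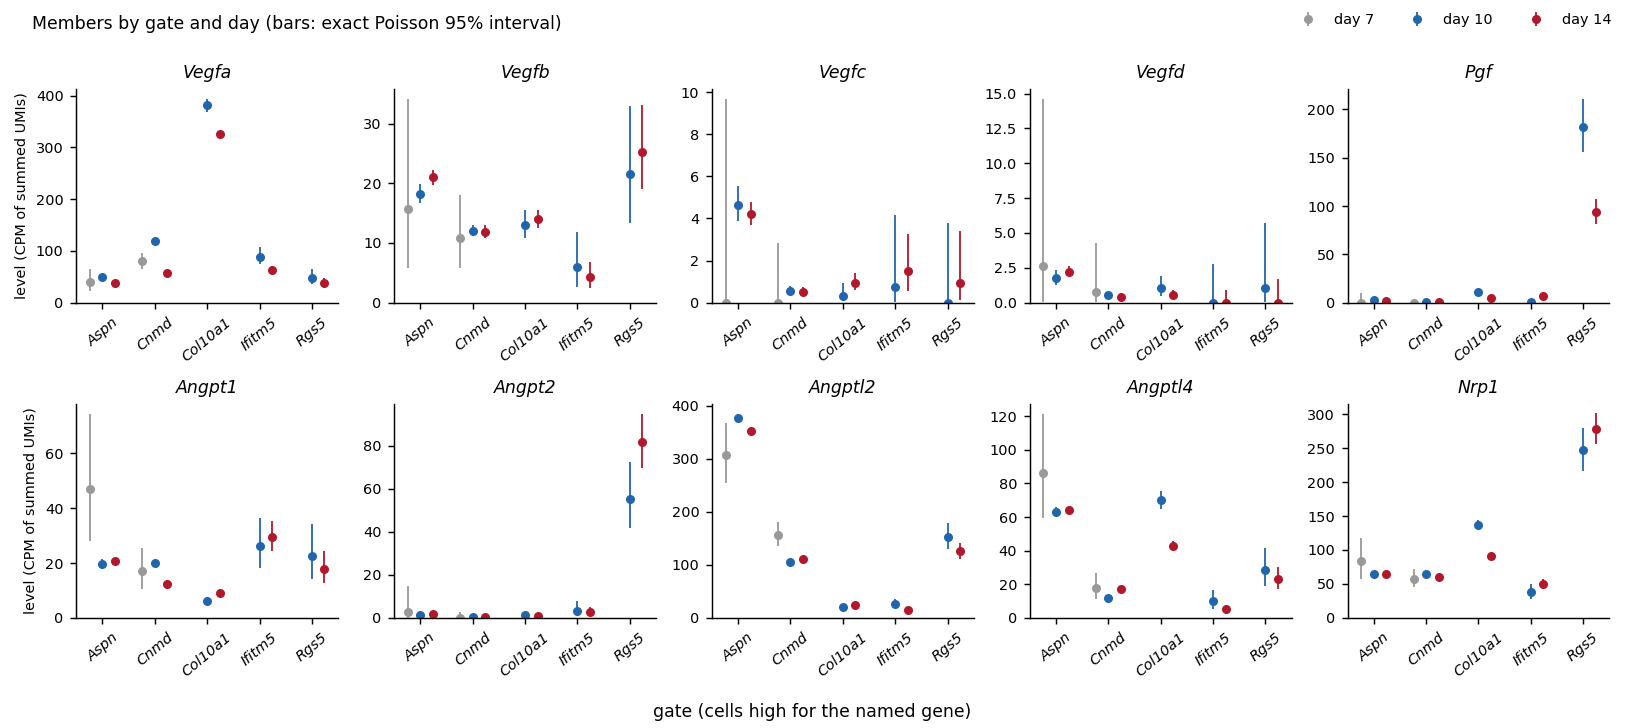
Level of each member in CPM of the summed UMIs (y axis, from 0) in the 5 gates (x axis), with 1 point per day for gates of at least 20 cells and bars for the exact Poisson 95% interval. Vegfa was highest in the Col10a1 gate, Angptl2 in the Aspn gate, and Pgf, Angpt2 and Nrp1 in the Rgs5 gate, where Pgf was 182 CPM at day 10 and 93.8 at day 14.

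Angptl2 (ENSMUSG00000004105, chr2:33216069-33247717, plus strand), a secreted factor known for roles in inflammation and matrix, was the member of the Aspn gate. It was 306 CPM at day 7 (interval 253 to 367), 376 at day 10 (369 to 384) and 352.5 at day 14 (347.5 to 357.5) there. The Rgs5 gate followed with 153 and 126 CPM at day 10 and day 14, then the Cnmd gate with 157, 105 and 111 CPM over the 3 days. The Col10a1 gate had 20.7 and 24.5 CPM and the Ifitm5 gate 25.5 and 14.5. The Aspn gate was thus highest on each day. The Rgs5 and Cnmd gates at day 14, and the Ifitm5 and Col10a1 gates at day 10, could not be ordered beyond counting error. The Aspn gate exceeded the other gated cells 4.06-fold at day 10 and 4.69-fold at day 14, while the log2 ratios were -3.19 and -3.29 in the Col10a1 gate and -2.77 and -3.80 in the Ifitm5 gate. A UMI was seen in 86.8% and 83.2% of Aspn cells, or 43.8% and 42.9% after thinning, against 0.420% in the Ptprc-positive cells of day 7 and 13.0% (8.34 to 19.0) in those of day 14.

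Angptl4 (ENSMUSG00000002289, chr17:33773750-33781830, minus strand), an inhibitor of lipoprotein lipase that responds to fatty acids and to low oxygen, was shared by the Aspn and Col10a1 gates. The Aspn gate had 86.4, 63.1 and 63.9 CPM at day 7, day 10 and day 14 (intervals 59.5 to 121, 60.2 to 66.2 and 61.8 to 66.1). The Col10a1 gate had 85.9, 70.2 and 42.85 CPM (47.0 to 144, 65.0 to 75.7 and 40.3 to 45.5), so it led the Aspn gate at day 10 and trailed it at day 14. The Rgs5 gate had 28.7 and 23.0 CPM at day 10 and day 14, the Cnmd gate 11.8 and 17.3, and the Ifitm5 gate 9.745 and 5.004. Both leading gates were well above the Cnmd gate, where the log2 ratios were -2.40 and -1.64. In the Col10a1 gate, cells with a UMI of Vegfa had one of Angptl4 in 46.5% at day 10 and 38.1% at day 14, and cells without Vegfa in 18.5% of 54 and 21.6% of 190. Their median depths were 17909 and 17223 UMIs with Vegfa and 13774 and 15655 without.

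Nrp1 (ENSMUSG00000025810, chr8:128358604-128503363, plus strand), the coreceptor among the members, was present in every gate and highest in the Rgs5 gate, at 247 CPM at day 10 (interval 217 to 281) and 278 at day 14 (256 to 301). The Col10a1 gate was second with 136 (129 to 144) and 91.3 CPM (87.6 to 95.1). The Aspn gate had 65.1 and 64.3 CPM, the Cnmd gate 64.6 and 59.6, and the Ifitm5 gate 37.5 and 49.3. The order of the 5 gates was the same at both days, and the Aspn and Cnmd gates differed beyond counting error at day 14 alone. The Rgs5 gate exceeded the other gated cells by log2 1.79 (1.60 to 1.97) and 2.04 (1.91 to 2.16). At day 7 the Aspn gate had 83.8 CPM and the Cnmd gate 56.9. In thinned cells the share with a UMI was 31.9% and 38.4% in the Rgs5 gate, 23.7% and 15.1% in the Col10a1 gate and 2.99% in the Ptprc-positive cells of day 7. In the Ptprc-positive cells of day 14 it was 7.10% (3.72 to 12.1).

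The members were next set against all genes. A gene was compared when it reached 10 CPM in the gate or in the other gated cells at both day 10 and day 14, and counted when it was at least 2-fold higher, or lower, at both. In the Aspn gate, 2 of 6 compared members were higher (Angptl2 and Angptl4), where 9.32% of all compared genes were, and 1 was lower (Vegfa), where 4.13% were. In the Cnmd gate, 0 of 6 were higher against 2.81% and 2 were lower (Angptl2 and Angptl4) against 9.44%. In the Col10a1 gate, 1 of 6 was higher (Vegfa) against 4.8% and 1 was lower (Angptl2) against 9.31%. In the Ifitm5 gate, 0 of 6 were higher against 4.03% and 3 were lower (Vegfb, Angptl2 and Angptl4) against 11%. In the Rgs5 gate, 3 of 8 were higher (Pgf, Angpt2 and Nrp1) against 12.1% and 1 was lower (Vegfa) against 7.74%. The members were thus divided between gates, with Vegfa highest in Col10a1 cells, Pgf, Angpt2 and Nrp1 in Rgs5 cells, and Angptl2 in Aspn cells. At day 10 alone, a reading chosen after seeing the data, Pgf, Angptl4 and Nrp1 joined Vegfa in the Col10a1 gate, which then had 4 members higher. With cells thinned to 2000 UMIs, the count of lower members was 0 in the Rgs5 gate, where Vegfa then had a log2 ratio of -0.76 at day 10, and 1 in the Ifitm5 gate. The shares of all genes at day 10 alone and in thinned cells were not computed, so these counts cannot be set against them.

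**Figure D2:**
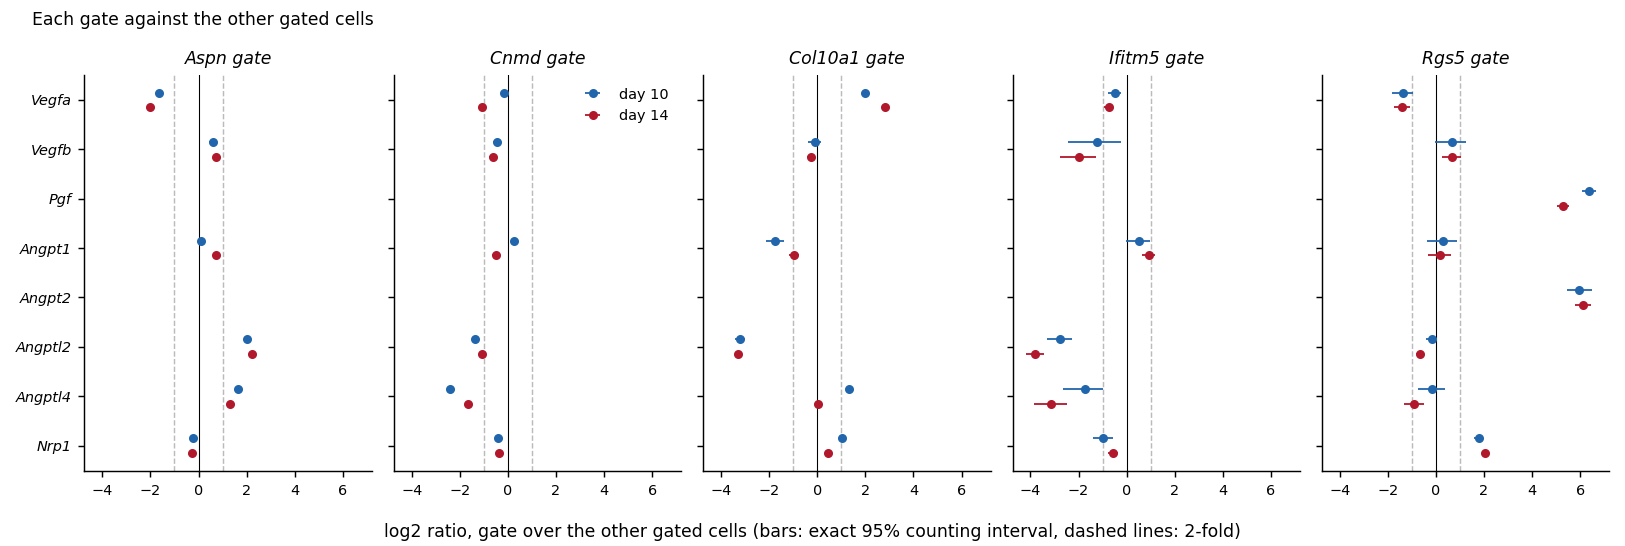
Log2 ratio of each compared member between a gate and the other gated cells (x axis) at day 10 and day 14, with bars for the exact 95% counting interval and dashed lines at 2-fold. Pgf (6.37 and 5.28) and Angpt2 (5.96 and 6.13) in the Rgs5 gate lay furthest from 0, and Vegfa was above 2-fold in the Col10a1 gate alone.

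Between day 14 and day 10 most members differed by under 2-fold within a gate. A gene was compared there when it reached 10 CPM at either day. In the Aspn gate none of 6 members was 2-fold higher or lower, where 0.237% and 1.01% of all genes were. Angptl2, Angptl4, Nrp1 and Angpt1 had log2 ratios of day 14 to day 10 from -0.09 to 0.08 there, and Vegfa had -0.38 (interval -0.48 to -0.28). In the Cnmd gate none of 6 was higher against 0.449%, and 1, Vegfa, was lower against 0.842%. Vegfa there was 2.05-fold lower at day 14 (log2 -1.04, -1.11 to -0.97), which was near the threshold: as a mean over cells the log2 ratio was -0.95 and in thinned cells -0.89. In the same cells Angpt1 had a log2 ratio of -0.68 (-0.83 to -0.52) and Angptl4 of 0.55 (0.40 to 0.71).

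In the Col10a1 gate none of 6 was higher at day 14 against 0.503%, and 1, Pgf, was lower against 0.857%, by 2.23-fold (log2 -1.16, interval -1.54 to -0.78). The log2 ratios were -0.71 for Angptl4, -0.58 for Nrp1 and -0.23 for Vegfa. In the Ifitm5 gate none of 4 was higher against 1.34% or lower against 2.46%. In the Rgs5 gate none of 8 was higher against 3.9% or lower against 3.16%. In cells thinned to 2000 UMIs 1 was higher (Angpt2) and 3 were lower (Pgf, Angpt1 and Angptl4), and the shares of all genes in thinned cells were not computed. Pgf in the Rgs5 gate was 1.94-fold lower at day 14 (log2 -0.95, -1.25 to -0.65), while Angpt2 was 1.47-fold higher (log2 0.56, 0.11 to 1.03) and Nrp1 had an interval that held 0. Pgf and Angpt2 in the Rgs5 gate thus had opposite signs between the days, with 1 library at each.

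The gate with the largest share of the UMIs was the same at both days for 6 members and differed for Vegfa, Vegfb, Angpt1 and Nrp1. At day 10 the Cnmd gate held 56.6% (interval 55.7 to 57.5) of the Vegfa UMIs of the gated cells and the Col10a1 gate 30.9% (30.02 to 31.7). At day 14 the Col10a1 gate held 63.4% (62.6 to 64.3) and the Cnmd gate 17.7% (17.0 to 18.4). The Col10a1 gate had grown from 546 to 1450 cells, and the Cnmd gate had gone from 2937 to 1882. The Aspn gate held 61.3% and then 78.5% of the Angptl2 UMIs, and 55.0% and then 65.8% of those of Angptl4. These shares depend on the number of cells captured in each gate as well as on the level.

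Within cartilage the members were followed along Col10a1. The cells of the Cnmd and Col10a1 gates of a day were divided into 5 bins of equal number by their Col10a1 level, bin 1 being the lowest. Vegfa at day 10 was 91.7, 110, 105.5, 158 and 324 CPM from bin 1 to bin 5, and at day 14 it was 57.0, 57.7, 102.5, 259 and 381. It was thus highest in the cells with most Col10a1 at both days. Angptl2 was lowest in bin 5 at both days. At day 10 it was similar over bins 1 to 4, at 105.5, 107, 113.5 and 104 CPM, and 32.5 in bin 5. At day 14 Angptl2 was 119, 119, 84.0, 32.9 and 14.0 CPM. Angpt1 was 20.5, 23.3, 21.9, 16.1 and 6.88 CPM at day 10. At day 14 Angpt1 was 14.7, 11.9, 10.2, 8.945 and 9.51 CPM, lowest in bin 4. Angptl4 was 13.2, 11.7, 14.2, 9.84 and 53.8 CPM over the bins of day 10, and Nrp1 71.85, 71.3, 67.9, 54.1 and 111, so both were highest in bin 5 and lowest in bin 4 at day 10. That order did not hold at day 14, where Angptl4 was 23.0, 15.15, 19.5, 39.7 and 42.85 CPM and Nrp1 was 64.9, 63.6, 56.9, 94.5 and 83.8. Of the cells in bin 5 of day 10, 78.5% were in the Col10a1 gate, against none in bins 1 to 4. At day 14 the share was 23.7% in bin 3, 94.0% in bin 4 and 100% in bin 5, so the same bin number is not the same Col10a1 level at both days. The cells of bin 1 had 0 UMIs of Col10a1 at day 10 and still had 91.7 CPM of Vegfa.

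**Figure D3:**
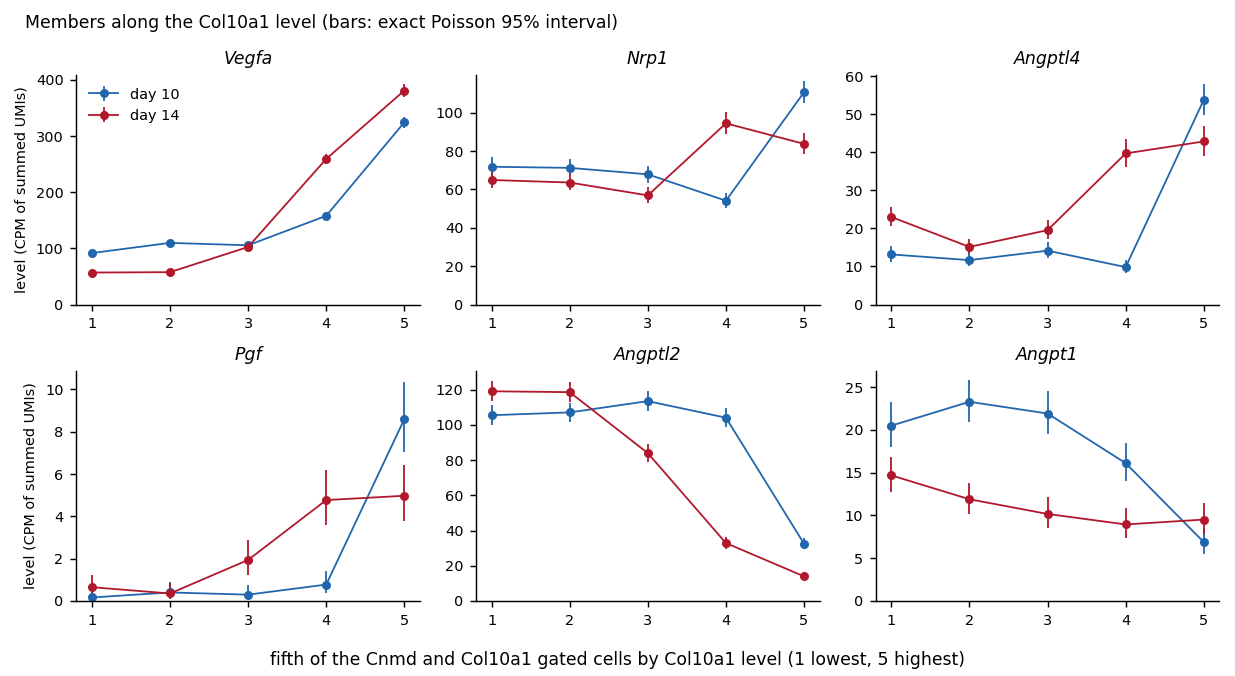
Level of 6 members in CPM (y axis, from 0) in the Cnmd and Col10a1 gated cells divided into 5 bins of equal number by Col10a1 (x axis), with 1 line per day and bars for the exact Poisson 95% interval. Vegfa was highest in bin 5, at 324 CPM at day 10 and 381 at day 14, where Angptl2 was lowest, at 32.5 and 14.0 CPM.

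The cells of a gate were not alike, and dividing each gate at the median of a listed gene showed where its members lay. In the Col10a1 gate the cells above the median of Mmp13, a collagenase of late hypertrophic cartilage, were compared with those below it (273 each at day 10, 725 each at day 14). Nrp1 was 218 CPM above and 58.4 below at day 10, and 141 and 45.0 at day 14, with log2 ratios of 1.90 (interval 1.71 to 2.09) and 1.65 (1.51 to 1.79). Angptl4 was 117 against 25.9 CPM and 62.7 against 24.5, or log2 2.18 and 1.36. Pgf was 21.9 against 1.42 CPM at day 10 and 9.02 against 1.48 at day 14, so nearly all of the Pgf of this gate, 102 of 109 and 107 of 126 UMIs, was in the cells above the median. Vegfa differed less, at 458 against 309 CPM and 376 against 279 (log2 0.57 and 0.43). The intervals of Nrp1, Angptl4 and Pgf lay above that of Vegfa at both days. These divisions were chosen after seeing the data.

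In the Aspn gate the dividing gene was Postn, the periostin gene that marks the progenitors the study is about. Angptl2 was 500 CPM in the cells above its median and 240 in those below at day 10, and 476 and 221 at day 14 (log2 1.06, interval 0.99 to 1.12, and 1.11, 1.06 to 1.15). No other member had an interval wholly above 0 in the cells with more Postn. Angpt1 was 14.4 against 25.2 CPM and 16.3 against 25.5, and Nrp1 58.0 against 73.0 and 49.5 against 80.0. Vegfa had intervals that held 0 at both days. In the Rgs5 gate the cells above the median of Acta2, the smooth muscle actin, had 106 CPM of Angpt2 against 51.7 at day 14 (log2 1.04, 0.56 to 1.55), and less Nrp1, at 203 against 368 CPM (log2 -0.86, -1.10 to -0.61). The day 14 intervals of Pgf (log2 0.66), Vegfa (-1.24) and Angptl4 (-2.06) also left out 0. Median depths at day 14 were 11430.5 UMIs above and 8149 below, and the part of depth was not tested. At day 10, with 37 cells on each side, the intervals of all these members held 0. Angpt1 was lower above the median at day 10 (log2 -1.77, -3.41 to -0.34), and its day 14 interval held 0. In the Cnmd gate Vegfa was 138 CPM in the cells with more Col10a1 and 99.6 in the rest at day 10, and 57.3 and 58.1 at day 14. In the Ifitm5 gate, divided by Bglap, the members whose intervals left out 0 were Vegfa, Angpt2 and Angptl2, at day 14 alone. The 39 cells on the lower side at day 10 had 0 UMIs of Bglap, and the 129 at day 14 had 1 UMI.

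**Figure D4:**
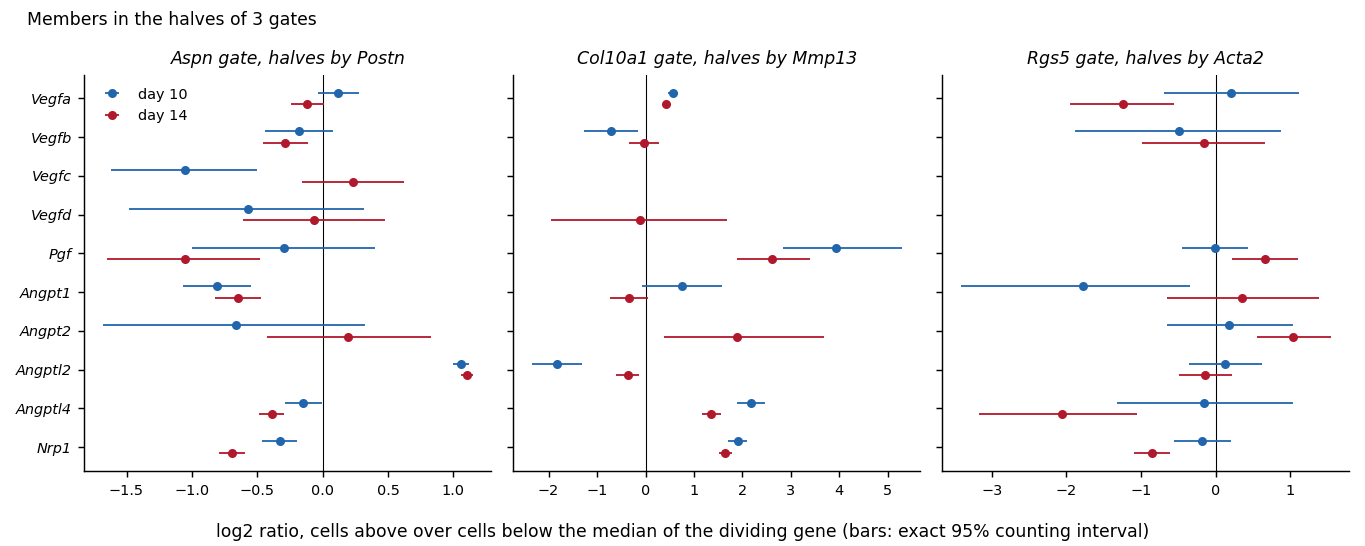
Log2 ratio of each member (x axis) between cells above and cells below the median of a dividing gene, in the Aspn gate (Postn), the Col10a1 gate (Mmp13) and the Rgs5 gate (Acta2), for members with more than 3 UMIs on each side, with bars for the exact 95% counting interval. Angptl2 lay at 1.06 and 1.11 in the Aspn gate, and Pgf, Angptl4 and Nrp1 were above 1 at both days in the Col10a1 gate.

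Of the 4 listed VEGF receptors and coreceptors, Flt1 and Nrp2 were found at over 10 CPM in at least 1 gate and Kdr and Flt4 in none. Kdr and Flt4 had no UMI in the Rgs5 gate at either day and were at most 0.607 CPM in the other gates of day 10 and day 14. Flt1, the receptor of VEGF-A, VEGF-B and PGF, was 122 CPM (119 UMIs, interval 101 to 146) and 93.3 CPM (199 UMIs, 80.8 to 107) in the Rgs5 gate at day 10 and day 14, and at most 0.698 CPM in the sum of the other gated cells. The Rgs5 gate thus had RNA of both Pgf and its receptor. Nrp2, a coreceptor close to Nrp1, was 484 and 395 CPM in the Ifitm5 gate and 215 and 204 CPM in the Aspn gate, and lower than the other gated cells in the Cnmd gate (log2 -1.30 and -1.32) and the Col10a1 gate (-1.03 and -1.78). Tek, which encodes TIE2, and the genes listed with it, Tie1 and Ptprb, summed to at most 3.08 CPM in any gate. Tek had no UMI in the Rgs5 gate. RNA of Angpt2 was thus measured with little RNA of its receptor in any gate.

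Emcn, which is used as an endothelial marker, was 52.3 and 31.4 CPM in the Rgs5 gate and at most 0.0822 CPM in the other gated cells, while Pecam1 was 3.08 CPM (3 UMIs) and 7.97 CPM (17 UMIs) in that gate. Egfl7 was 3.08 and 5.63 CPM there and Tie1 2.05 and 1.88 CPM, against at most 1.84 and 0.0106 CPM in the other gated cells. Cdh5 and Cldn5 were at 0, but were also at most 0.181 CPM in the other gated cells, under the 3.08 and 1.41 CPM that 3 UMIs would be in the Rgs5 gate. Erg and Vwf had no UMI in the Rgs5 gate at day 10. Emcn and Erg were the only 2 endothelial markers compared in that gate, and Erg was at least 2-fold lower there at both days. The 5 cell cycle markers were all higher in the Rgs5 gate, where they summed to 318 and 279 CPM against 8.98 to 118 CPM in the other gates. The part of endothelial or dividing cells in the levels of Pgf, Angpt2, Nrp1 and Flt1 was not tested.

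Genes of the low oxygen response did not form a single pattern with Vegfa. In the Col10a1 gate, 2 of 9 compared hypoxia target genes were higher, Adm by log2 3.00 and 3.84 and Mxi1 by 1.41 and 1.22, and 0 were lower. Over all genes, 4.8% were higher and 9.31% lower in this gate. The median of the 9 was 0.52, against -0.11 for all compared genes. This was not particular to the Col10a1 gate. In the Cnmd gate the median of 10 compared targets was 0.75, against -0.24 for all compared genes. The 12 listed targets summed to 2007.6 and 2141.0 CPM in the Cnmd gate and to 1599.3 and 1605.9 CPM in the Col10a1 gate. Slc2a1, the glucose transporter, had log2 ratios of 0.45 and 0.81 there and Pgk1 of -0.25 and 0.18. Of 6 compared hypoxia regulators, Epas1, which encodes HIF-2 alpha, was higher in the Col10a1 gate by 4.13 and 3.17, at 84.1 and 96.9 CPM, and in the Rgs5 gate by 4.77 and 4.04, at 274 and 363 CPM. It was 1.11 and 2.65 CPM in the Cnmd gate. Hif1a had log2 ratios of -0.52 and -0.60 in the Col10a1 gate, and its level was 226 and 212 CPM. Epas1 was thus high in the gates with the most Vegfa and with the most Pgf, Angpt2 and Nrp1. The Rgs5 gate had more Epas1 than the Col10a1 gate, but its Vegfa was low, at 48.2 and 38.9 CPM. A link between Epas1 and the members was not tested. In the Aspn gate, 4 of 10 hypoxia targets were lower (Slc2a1, Bnip3, Adm and Bhlhe40) and 0 were higher. In the Cnmd gate 1 of 10 was lower, in the Ifitm5 gate 3 of 10 were lower, and in the Rgs5 gate 3 of 9 were lower and 1, Ankrd37, was higher. The shares of all genes that were lower were 4.13% in the Aspn gate, 9.44% in the Cnmd gate, 11% in the Ifitm5 gate and 7.74% in the Rgs5 gate. In the Rgs5 gate 12.1% of all genes were higher.

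Angptl4 is also a target of the PPAR fatty acid receptors, and of 4 compared PPAR targets Plin2 and Pdk4 were higher in the Col10a1 gate (Plin2 by log2 1.70 and 1.37, Pdk4 by 3.25 and 2.79) and Fabp4 was lower. In the Aspn gate, the other gate with Angptl4, 0 of 3 differed by 2-fold. Over all compared genes, 4.8% were higher and 9.31% lower in the Col10a1 gate, and 9.32% were higher and 4.13% lower in the Aspn gate. Fabp4 was 322 and 447 CPM in the Rgs5 gate, with log2 ratios of 4.72 and 4.27.

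Of 9 other secreted vessel factors, 5 were compared in the Aspn gate (2 higher, 1 lower), 6 in the Cnmd gate (0 higher, 3 lower), 5 in the Col10a1 gate (2 higher, 1 lower), 3 in the Ifitm5 gate (1 higher, 2 lower) and 4 in the Rgs5 gate (1 higher, 0 lower). Over all genes, 9.32%, 2.81%, 4.8%, 4.03% and 12.1% were higher in these gates, in that order. The shares of all genes that were lower were 4.13%, 9.44%, 9.31%, 11% and 7.74% in the same order. Apln and Esm1 were higher in the Col10a1 gate, Apln by log2 2.10 and 3.51 and Esm1 by 5.14 and 4.99, and Cxcl12 in the Aspn gate by 3.86 and 3.97. Pdgfa was higher in the Rgs5 gate (513 and 393 CPM) and in the Ifitm5 gate (361 and 248 CPM). Of 7 compared inhibitors of vessel growth, 3 were higher in the Aspn gate, against 9.32% of all genes: Thbs2 by 2.79 and 3.30, Tnmd by 2.82 and 3.83, and Serpinf1 by 1.92 and 2.30. In the Col10a1 gate 5 of 7 were lower, against 9.31% of all genes, and none was higher, and the median of the list was -2.60 against -0.11 for all compared genes. The Cnmd gate also had 5 of 7 lower, against 9.44%, with a median of -1.81 against -0.24. In the Ifitm5 gate 4 of 7 were lower, against 11%. None was higher in the Cnmd or the Ifitm5 gate. The Rgs5 gate had 2 of 7 higher, against 12.1% of all genes, and 1 lower, Tnmd, against 7.74%. The higher ones were Adamts1 and Col18a1, the source of endostatin, which was 2080 and 1861 CPM. Angptl1, the only other angiopoietin-like gene compared, was 95.8 and 166 CPM in the Aspn gate, with log2 ratios of 2.97 and 4.17, and lower in the 4 other gates. The Aspn gate thus had Angptl1, Angptl2 and Angptl4 together with vessel inhibitors, and less Vegfa than the Cnmd and Col10a1 gates. The inhibitors were not particular to it: the 8 listed summed to 3643.4 and 3788.9 CPM there and to 3525.3 and 2796.9 CPM in the Rgs5 gate. That list left out the gate gene Cnmd (chondromodulin), which was 3373.7 and 2991.3 CPM in its own gate.

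The 11 listed semaphorins and plexins work with neuropilins. Of these, 5 were compared in the Rgs5 gate and 5 in the Col10a1 gate, the 2 gates with the most Nrp1. Plxnd1 was the 1 higher in each, against 12.1% and 4.8% of all genes. It was 44.1 and 38.4 CPM in the Rgs5 gate (log2 2.29 and 1.80) and 31.5 and 23.3 CPM in the Col10a1 gate (log2 2.19 and 1.45). More were lower: 3 in the Rgs5 gate (Sema3c, Sema3d and Plxna2), against 7.74%, and 2 in the Col10a1 gate (Sema3c and Sema3d), against 9.31%. Sema3c was higher in the Aspn gate (log2 2.50 and 2.97) and lower in the other gates, and Sema3d was higher in the Cnmd gate (1.43 and 1.78) and in the Ifitm5 gate (1.19 and 1.45).

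Likeness was described over 11 groups, each a gate at 1 day with at least 50 cells, as Pearson's r of log2(CPM + 10), for members with at least 20 CPM in a gate at day 10 and day 14. Pgf and Angpt2 had an r of 0.950, Pgf and Nrp1 of 0.913 and Angpt2 and Nrp1 of 0.854, values that rest on the 2 groups of the Rgs5 gate. Vegfa had an r of -0.725 with Angpt1 and -0.656 with Angptl2. Over 6540 genes, those most like Vegfa were Irx3, Fam20c and Chd7 (0.961 to 0.953), and those most like Pgf were Spry4, Fam110a and Arhgef7 (0.988 to 0.981). For Angpt2 they were Olfml2a, Susd2 and Ccl11 (0.996 to 0.995), for Nrp1 Ccm2, Itga1 and Crtc3 (0.981 to 0.969), and for Angptl2 Igsf10, Fst and Znrd1 (0.979 to 0.974). For Angptl4 they were Spon2, Cttn and Fam126a (0.940 to 0.932), for Angpt1 Pcolce, Mrps34 and Lcorl (0.920 to 0.918), and for Vegfb Usp14, Ywhah and Kifap3 (0.983 to 0.978). The groups share libraries, and these are descriptions over few points.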

How the data were processed

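The deposited values were raw UMI counts, 1 matrix per library and day. Per the labels reads were aligned to mm10 with Cell Ranger 3.0 and a single cell 3' v2 kit was used, the matrix headers name software 3.1.0, and the study's methods name a later kit and version. UMIs of 3' ends were compared between cells, not between genes. Cells were kept by the study's limits and Ptprc = 0, gated, and their UMIs summed. No doublet caller was run beyond the limit of 5000 genes, and 736 of 5386 gated cells at day 10 and 746 of 7634 at day 14 were above more than 1 gate threshold. Levels have exact Poisson intervals, and ratios and shares exact binomial (Clopper-Pearson) ones. A count of 0 was set to a floor of 3 in ratios. The ratios were tested on simulated data. The members and lists were chosen with earlier results of these data known. Up to 4 genes per list were named, those past 2-fold with the largest ratios, and list genes named without passing 2-fold were chosen after their values were seen. GENCODE M21 held 99.61% of the gene identifiers. Python 3.11.15, numpy 2.4.6 and scipy 1.17.1 were used.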

Additional observations from a re-analysis of the deposited data

Results flagged for a closer look

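The day 14 to day 10 log2 ratio of Angptl2 was 0.25 in the Col10a1 gate and -0.81 in the Ifitm5 gate, and that of Angptl4 was 0.55 in the Cnmd gate and -0.71 in the Col10a1 gate, opposite directions in each pair. The log2 ratio of Angpt1 between the Cnmd gate and the other gated cells was 0.27 at day 10 and -0.51 at day 14. With 1 library a day, none of these differences was tested.

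Outside the gates at day 7, in cells that the comparisons left out, Vegfa was 213.6 CPM (interval 197.3 to 230.8, 639 UMIs in 354 cells), Pgf 34.8 CPM (28.4 to 42.1) and Angptl4 45.5 CPM (38.1 to 53.8). The Ptprc-positive cells of the same library had 25.4 CPM of Vegfa and 2.35 CPM of Pgf. The neutrophil markers summed to 38126.5 CPM in those 354 cells, and the part of such RNA in these levels was not tested. Outside the gates at day 10 and day 14 Vegfa was 111 and 104 CPM and Pgf 11.3 and 7.06 CPM.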

How the results depend on the processing

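Of 140 recomputed calls of a member in a gate (14 calls under 10 alternatives), 134 stayed past 2-fold, and none of the called members changed sign. Against the unweighted mean of the other gates, the lower members numbered 3 in the Aspn gate, 4 in the Col10a1 gate and 6 in the Ifitm5 gate. At day 10 alone, an alternative chosen after seeing the data, 4 members were higher and 2 lower in the Col10a1 gate. The lower members there were also 2 without cells above several thresholds, in cells thinned to 2000 UMIs and with the mean of CPM over cells, Angpt1 being the added one. In thinned cells the lower members were 1 in the Ifitm5 gate and 0 in the Rgs5 gate, and for day 14 against day 10 they were 0 in the Cnmd gate, also with the mean of CPM over cells, and 3 in the Rgs5 gate. Thinning also gave 1 higher member at day 14 in the Ifitm5 gate (Angptl2) and 1 in the Rgs5 gate (Angpt2). At day 14 the Ifitm5 gate had 1 lower member with doubled thresholds, without cells above several thresholds, without the upper limit of genes, in thinned cells and with the mean of CPM over cells, and the Rgs5 gate had 1 without cells above several thresholds and with the mean of CPM over cells. The cause of these moves was not tested, and the shares of all genes under these alternatives were not computed. Without the minimum of 10 CPM more genes entered, and the counts of all genes higher went from 729 to 1909 in the Aspn gate, 217 to 559 in the Cnmd gate, 367 to 1307 in the Col10a1 gate, 303 to 645 in the Ifitm5 gate and 980 to 1784 in the Rgs5 gate. Those lower went from 323 to 1145, 728 to 2536, 712 to 1821, 824 to 1490 and 629 to 885 in the same order, which moved the share from 4.13% to 6.29% in the Aspn gate and from 7.74% to 4.86% in the Rgs5 gate. Leaving the 20 most abundant genes out of the totals moved the median log2 ratio of all genes by -0.15 to 0.16. No paired analysis was possible because each day is 1 library. Each level rests on 1 library, and the 74 Rgs5 and 76 Ifitm5 cells of day 10 limit their precision.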
